A study of Mus musculus with 8 samples.

Results

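Nuclear receptors were followed as a family of 36 genes, picked by symbol, among the 40178 genes that the RNAseq count tables of isolated intestinal epithelial cells (IECs) list. Of the 36, 33 were listed for both colon and ileum. Nr2f1 and Pgr were listed for the ileum and were taken as 0 counts in the colon. Nr0b1 was listed for neither tissue and entered only the promoter search below. The cells were released by EDTA from the colon and the ileum of 4 mice aged 8 weeks, 2 of them WT IEC (Ddx5 +/+, Vil1Cre +) and 2 DDX5 ΔIEC (Ddx5 fl/fl, Vil1Cre +), which gave 8 libraries in 4 groups of 2. Each mouse gave a colon and an ileum library. Both genotypes carried the Cre transgene, whose Villin1 promoter acts in the epithelium, so any leukocyte or stromal cell left in a DDX5 ΔIEC preparation would keep its Ddx5 gene.

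Nuclear receptors are transcription factors, many of which are switched by a small fat-soluble ligand such as retinoic acid, thyroid hormone, a fatty acid, a sterol or a steroid. They bind DNA at short hexamer elements as monomers, as pairs of the same receptor, or as pairs with a retinoid X receptor (RXR), and they recruit coactivators when active and corepressors when silent. In the gut, HNF4 factors maintain the enterocyte gene program, the pregnane X receptor senses bile acids and drugs, and peroxisome proliferator-activated receptors (PPARs) sense fatty acids. DDX5, a DEAD-box RNA helicase, is a reported coactivator of several members of the family, which is why the receptors' own RNA, and that of their cofactors and targets, was examined in cells without it.

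Total counts per library ranged from 11571061 to 22984283. Ddx5 RNA was 770 and 705 CPM (counts scaled to library size, with TMM factors) in WT IEC colon against 367 and 354 in DDX5 ΔIEC colon, and 699 and 699 against 339 and 326 in the ileum. Summed CPM of 7 epithelial markers ranged from 10538 to 17304, that of 7 stromal markers from 3.95 to 17.2, and that of 4 smooth muscle markers did not exceed 1.31 in any library. The 4 ileum markers summed to between 2479 and 4632 CPM in the ileum libraries against at most 70.1 in the colon, and the 3 colon markers to between 2416 and 3501 in the colon against at most 45.0 in the ileum. Ileum libraries also differed in reads on genes that the gut does not use. Olfactory receptor genes summed to 68.5 and 52.9 CPM in WT IEC ileum and 19.7 and 167 in DDX5 ΔIEC ileum, against 10.8 to 15.4 in the colon libraries. DDX5 ΔIEC ileum replicate 2 carried 19.5% of its counts on 3 repeat-like genes, against 0.000956% to 4.04% in the other libraries. A receptor with few counts in the ileum is therefore given below with its counts.

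Hnf4a was the most abundant receptor in all 4 groups. It encodes HNF4α, a factor that holds enterocytes and hepatocytes in their differentiated state. Divided by exon length, its level was 124 ± 2.81 CPM per kb in WT IEC colon (SD, n = 2 mice) and 193 ± 4.44 in WT IEC ileum, between 33.1% and 39.1% of the summed level of all members in any library. In the colon of WT IEC mice, Esrra followed with 50.4 ± 2.07 CPM per kb (SD, n = 2), Nr2f6 with 29.4 ± 1.27, Nr1i2 with 26.8 ± 1.96 and Pparg with 24.2 ± 3.92. Nr1i2 and Pparg were closer to each other than their spread between mice. In the ileum the order below Hnf4a changed. Hnf4g, the second HNF4 gene, came next with 89.0 ± 11.4 CPM per kb (SD, n = 2), Esrra followed with 69.4 ± 0.428, Nr1i2 with 30.2 ± 1.43 and Rxra with 27.2 ± 1.14, while Pparg ranked 15 with 3.46 ± 0.387.

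**Figure D1:**
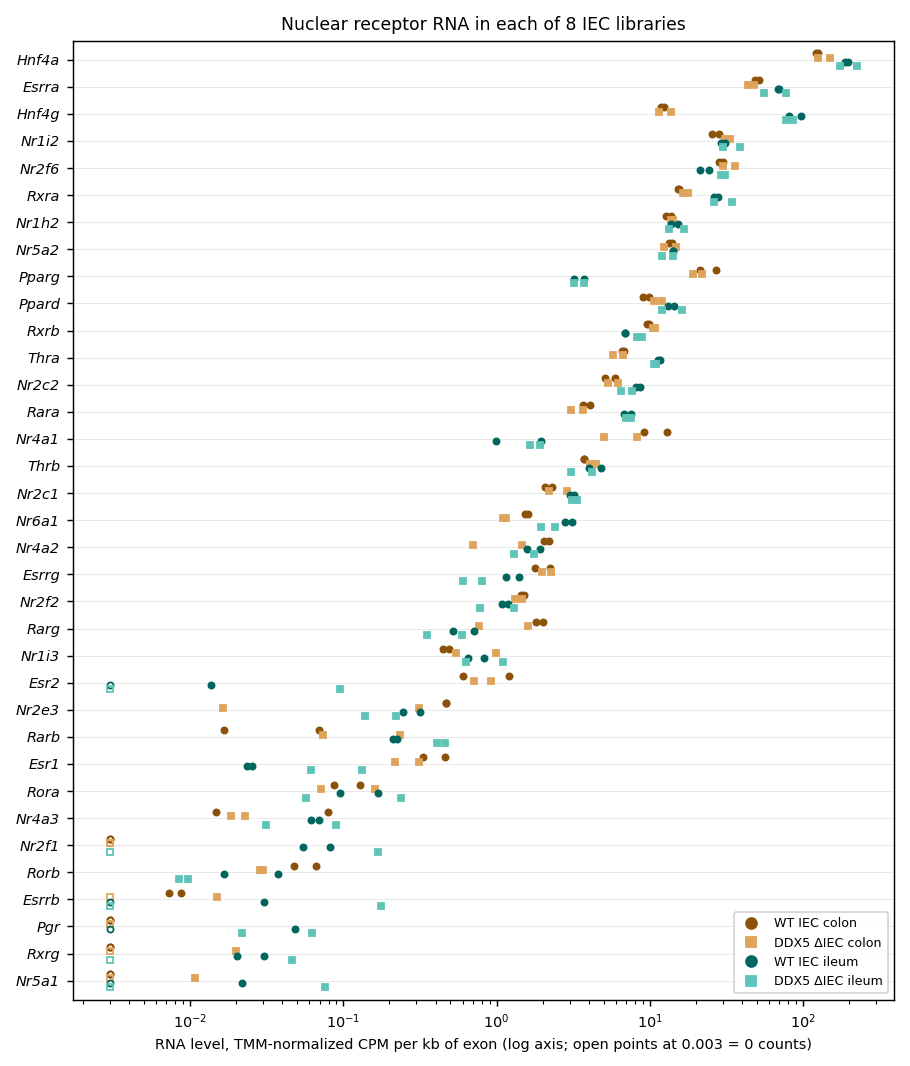
RNA level of the 35 listed nuclear receptors in each of the 8 libraries, as TMM-normalized CPM per kb of exon on a log axis. Each point is 1 library, circles are WT IEC and squares DDX5 ΔIEC, brown is colon and green is ileum, and open points mark 0 counts. Levels run from Hnf4a at the top, over 100 in every library, to receptors with single counts at the bottom, and Hnf4g, Pparg, Nr4a1 and Esr2 are among those with wide gaps between tissues.

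At the other end, 6 members had at most 10 counts in any library. Rxrg, Nr5a1 (steroidogenic factor 1, of the adrenal and gonad), Pgr (the progesterone receptor), Nr2f1, Esrrb and Nr4a3 were thus at or near the floor of detection, and a count of 0 allowed up to 0.132 to 0.321 CPM depending on the library. That floor covers counting error only. The highest single values of this group were 10 counts of Esrrb in DDX5 ΔIEC ileum replicate 2 and 9 counts each of Nr2f1 and Pgr in WT IEC ileum replicate 1, in libraries with high olfactory receptor counts. No test is given for these 6 receptors, which did not pass the filter on low counts in any of the comparisons described here. Among the other receptors, the lowest in WT IEC colon were Rarb with 0.0432 ± 0.0375 CPM per kb (SD, n = 2) and the ROR-type receptors Rorb with 0.057 ± 0.0132 and Rora with 0.108 ± 0.029, where Rarb and Rorb were closer than their spread.

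Some receptors overlap a gene on the opposite strand, and the strand setting of the counting is not given in the sources used here. Exon bases shared with an opposite-strand gene made up 74.9% of Nr1i3 (with Tomm40l), 54.4% of Nr2f6 (with Ocel1), 38.4% of Rarb (mainly with Top2b) and 31.2% of Nr2c2 (with Mrps25). Thra shared 5.70% with Nr1d1. Values of Nr1i3, Nr2f6, Rarb and Nr2c2 are uncertain to that extent.

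Promoter sequence was read for the members from RefSeq windows of GRCm38.p6 that run from 250 bases before to 50 bases after a start of a gene, alternative starts included, and 33 of the 36 genes had at least one (53 windows). The hexamer AGGTCA, the element that most receptors of the family recognize, occurred on either strand in the windows of 9 of the 33 members, against 18.1% of 27025 genes. A gene with more windows has more room for a match. Counted per window, it was in 10 of the 53, against 16.3% of 32851 windows. Its longer form AAAGGTCA, which contains it and which NR4A receptors bind as monomers, was in 2 of 33 against 1.70%, and neither TCAAGGTCA, the form bound by estrogen-related receptors and NR5A2, nor the HNF4 core CAAAGTCCA was found in any of the 33 (0.466% and 0.555% of all genes). The spaced pair of half-sites that forms the retinoic acid response element of the β type was in 1 member, Rarb, and in 11 of the 27025 genes. These are matches of letters within short windows and not measured binding. For the receptors whose tissue difference is described next, the stretch around a match is shown, 30 bases read on the strand of the gene, with the match in capitals (TGACCT is the hexamer on the other strand). Rarb lies at chr14:16575506-16575535, Rarg at chr15:102257730-102257759, Rxra at chr2:27709231-27709260, Pparg at chr6:115361104-115361133 and Nr6a1 at chr2:38784543-38784572. The windows shown for Rarb, Rxra and Nr6a1 belong to alternative starts inside the gene's annotated span.
Rarb: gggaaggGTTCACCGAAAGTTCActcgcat
Rarg: agcccaggacacTGACCTctgccagctctg
Rxra: tgggtggcaggAAAGGTCAgtcactctctg
Pparg: agccgccgcctcAGGTCAgagtcgccccgg
Nr6a1: cggcttgtaaacTGACCTgtgaggatgacg

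Ileum and colon differed widely in their receptors. In WT IEC mice, 19 of the 29 members tested passed at an adjusted p-value under 0.05 (quasi-likelihood test of edgeR), 11 higher and 8 lower in the ileum, against 43.6% of the 15611 genes tested (22.2% higher and 21.4% lower). The median log2 fold change of the 29 was 0.17, against −0.02 over all genes. CPM of the 2 tissues did not overlap for 27 of the 29, against 73.4% of genes tested. In DDX5 ΔIEC mice, 9 of 27 members passed, 5 higher and 4 lower, against 25.5% of the 14816 genes tested (13.6% higher and 11.8% lower). All 9 were among the 19 and had the same direction, and the 2 comparisons share no library. Over all genes, 91.7% of those called in DDX5 ΔIEC and 50.8% of those called in WT IEC were called in the same direction in both.

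Hnf4g had the largest fold change of the 11 receptors that were higher in WT IEC ileum. Hnf4g RNA was 32.7 and 31.0 CPM in WT IEC colon, 30.2 and 36.5 in DDX5 ΔIEC colon, 213 and 255 in WT IEC ileum, and 203 and 225 in DDX5 ΔIEC ileum. Every ileum library was above every colon library, 7.34-fold in WT IEC (log2 fold change 2.88, SE 0.12, adjusted p = 1.03e-06, edgeR) and 6.53-fold in DDX5 ΔIEC (2.71, SE 0.16, adjusted p = 0.000431). Hnf4a RNA was 607 and 588 CPM in WT IEC colon and 917 and 947 in WT IEC ileum, 1.56-fold higher (adjusted p = 0.00144). In DDX5 ΔIEC mice it was 725 and 606 CPM in the colon against 1090.4 and 841 in the ileum, a difference that did not pass (log2 fold change 0.56, SE 0.24, adjusted p = 0.145). Within the pair, Hnf4g accounted for 7.10% to 9.95% of the level per kb in the colon libraries and 25.5% to 33.1% in the ileum libraries.

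Of the targets of HNF4 that were listed for comparison, 6 of 7 were tested in WT IEC. All 6 were higher in the ileum, against 22.2% of genes tested. Apoa1, the main apolipoprotein of high-density lipoprotein, had 9 and 1 counts in WT IEC colon and 41454 and 29951 in WT IEC ileum. In WT IEC colon Apoa4 had 18 and 0 counts and Apoc3 had 1 and 1. Apoa1, Apoa4 and Apoc3 entered the test only through their ileal counts, so the filter fixed their direction. Mttp, which loads lipid onto apolipoprotein B, had a log2 fold change of 8.45 (SE 0.21), and Apob, apolipoprotein B itself, one of 5.57 (SE 0.19). In DDX5 ΔIEC mice the same number, 6 of 6, were higher in the ileum, against 13.6% of genes tested. Apoa1, Apoa4 and Apoc3 again entered only through their ileal counts.

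PPARγ and PPARδ changed places. Pparg, whose product acts in fat storage and in colonocyte differentiation, was at 79.7 and 63.3 CPM in WT IEC colon and 9.40 and 11.0 in WT IEC ileum, 7.05-fold lower in the ileum (log2 fold change −2.82, SE 0.15, adjusted p = 4.23e-06). In DDX5 ΔIEC mice the values were 56.4 and 64.4 CPM against 10.9 and 9.41, 5.82-fold lower (adjusted p = 0.000515). Colon and ileum libraries were thus apart in both genotypes. Ppard, a receptor for fatty acids with broad expression, was 67.5 and 74.1 CPM in WT IEC colon against 98.7 and 108 in WT IEC ileum (log2 fold change 0.54, SE 0.10, adjusted p = 0.00252) and did not pass in DDX5 ΔIEC (0.34, SE 0.18, adjusted p = 0.221). Per kb, Pparg made up at least 61.3% of the 2 receptors' summed level in the colon libraries and 16.4% to 23.5% in the ileum libraries. Their shared targets split in WT IEC, where 4 of 9 tested were higher and 4 lower in the ileum, against 22.2% and 21.4% of genes tested. Pdk4, a kinase that slows pyruvate oxidation, had a log2 fold change of −5.16 (SE 0.72) and Vnn1, a pantetheinase, one of 3.85 (SE 0.27).

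Retinoid receptors differed by subtype. Among the receptors for all-trans retinoic acid, Rara was 15.9 and 17.7 CPM in WT IEC colon and 33.2 and 29.6 in WT IEC ileum, 1.87-fold higher (log2 fold change 0.90, SE 0.11, adjusted p = 0.000459), and 2.22-fold higher in DDX5 ΔIEC (adjusted p = 0.00541). Rarg ran the other way, with 7.76 and 8.57 CPM in WT IEC colon and 3.04 and 2.22 in WT IEC ileum (log2 fold change −1.61, SE 0.22, adjusted p = 0.000638, edgeR). It did not pass in DDX5 ΔIEC (−1.29, SE 0.48, adjusted p = 0.102, edgeR). Rarb, which carries the retinoic acid response element shown above, was the scarcest of the 3, with 7 and 2 counts in WT IEC colon and 24 and 17 in WT IEC ileum (log2 fold change 2.36, SE 0.55, adjusted p = 0.00989). It entered the test only through its ileal counts, and it did not pass in DDX5 ΔIEC either (1.49, SE 0.56, adjusted p = 0.107, edgeR). With 1 WT IEC library left out, Rarg passed in 2 of 4 fits and Rarb in 1 of 4. Rarg made up 32.9% and 33.1% of the 3 receptors' level per kb in WT IEC colon, and 8.37% and 6.92% in WT IEC ileum.

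Their common partners, the RXRs, shifted as well. Rxra was 83.2 and 84.5 CPM in WT IEC colon and 153 and 144 in WT IEC ileum (log2 fold change 0.82, SE 0.08, adjusted p = 0.000152), with a like difference in DDX5 ΔIEC (0.85, SE 0.17, adjusted p = 0.018). Rxrb was 36.6 and 35.3 CPM in the colon and 25.3 and 25.6 in the ileum of WT IEC mice (log2 fold change −0.50, SE 0.09, adjusted p = 0.00317), and in DDX5 ΔIEC its difference of −0.28 (SE 0.13) did not pass. Rxra thus took 60.7% to 62.7% of the RXR level per kb in colon libraries and 74.6% to 80.6% in ileum libraries. Of the retinoic acid receptor targets, 3 of 5 tested were higher in WT IEC ileum and none was lower, against 22.2% and 21.4% of genes tested. Among them were Tgm2, a transglutaminase (log2 fold change 2.69, SE 0.15), and Isx, an intestinal homeobox factor (1.19, SE 0.13).

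**Figure D2:**
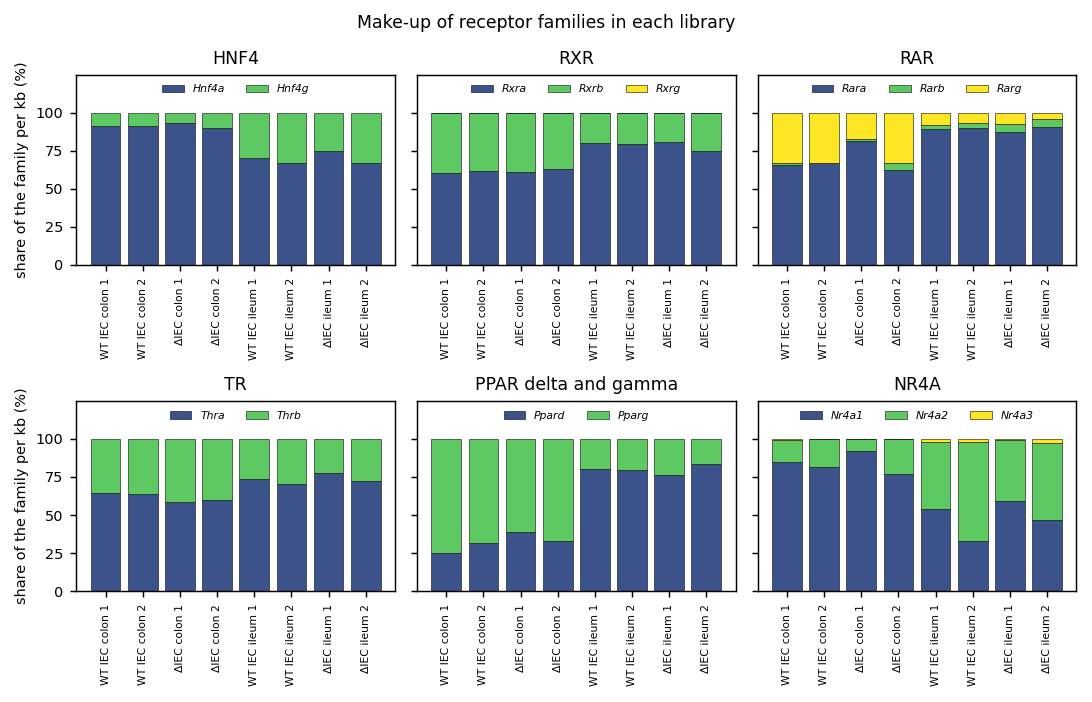
Make-up of 6 receptor families in each library, as the percent of the family's summed level per kb that each gene holds. Bars are single libraries, the first 4 from colon and the last 4 from ileum, and 1 and 2 are replicates. Pparg holds at least 61.3% of its pair in colon and at most 23.5% in ileum, while Rxra, Rara and Hnf4g hold more in ileum than in colon in all libraries.

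Thra, the more abundant thyroid hormone receptor gene in these cells, was 31.2 and 30.3 CPM in WT IEC colon and 52.3 and 53.5 in WT IEC ileum (log2 fold change 0.78, SE 0.09, adjusted p = 0.00025). DDX5 ΔIEC mice had 26.6 and 30.8 CPM against 49.5 and 51.1 (0.84, SE 0.14, adjusted p = 0.0105). Thrb did not pass in either genotype, with log2 fold changes of 0.24 (SE 0.11) and −0.21 (SE 0.18). Nr6a1, germ cell nuclear factor, was higher in the ileum of both genotypes, with 17.3 and 16.7 CPM in WT IEC colon and 33.5 and 30.3 in WT IEC ileum (1.88-fold, adjusted p = 0.000303) and 12.0 and 12.6 against 21.1 and 26.0 in DDX5 ΔIEC (1.95-fold, adjusted p = 0.0126). Smaller differences were called in WT IEC for the testicular receptors Nr2c1 (log2 fold change 0.49, SE 0.14) and Nr2c2 (0.61, SE 0.10), for Esrra (0.46, SE 0.08) and for Nr2f6 (−0.36, SE 0.10). None of these 4 passed in DDX5 ΔIEC. With the mouse as replicate block, Esrra passed in DDX5 ΔIEC too (adjusted p = 0.0404), and Nr2f2, COUP-TFII, of mesenchymal and endothelial cells, passed in WT IEC (adjusted p = 0.0425, against 0.0529 without the block, edgeR).

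Sensors of xenobiotics and sterols kept to a narrow range. Nr1i2, the pregnane X receptor, was 65.0 to 99.8 CPM over all 8 libraries, Nr1h2, the liver X receptor β, was 42.9 to 56.2, and Nr5a2, liver receptor homolog 1 of crypt cells, was 71.1 to 87.9. None of these 3 passed the tissue test in either genotype, and the log2 fold changes in WT IEC were 0.17 (SE 0.10), 0.13 (SE 0.10) and 0.04 (SE 0.08). Nr1i3, the constitutive androstane receptor, was 1.98 to 4.87 CPM and did not pass either. Their listed targets did differ between the tissues. Among PXR and CAR targets, 4 of 10 tested were higher and 4 lower in WT IEC ileum, against 22.2% and 21.4% of genes tested. Their log2 fold changes ran from −7.09 (SE 0.17) for Cyp2c55, a colonic cytochrome P450, to 6.71 (SE 0.17) for Abcc2, an export pump of the apical membrane. All 7 LXR targets passed, against 43.6% of genes tested. The 3 higher ones were led by Abcg8 (5.11, SE 0.19) and Abcg5 (4.05, SE 0.11), the pair that returns sterols to the lumen, and 4 were lower.

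In WT IEC, the estrogen receptors had the largest fold changes toward the colon. Esr2, estrogen receptor β, had 78 and 46 counts in WT IEC colon and 1 and 0 in WT IEC ileum, and 56 and 53 against 0 and 3 in DDX5 ΔIEC. Pooled over mice, the colon to ileum ratio was 107 in WT IEC (exact 95% interval 18.9 to 4266, for counting error only) and 18.2 in DDX5 ΔIEC (6.05 to 89.4), and the test passed in both (adjusted p = 0.000429 and 0.0151, edgeR), which Esr2 entered only through its colon counts. Esr1, estrogen receptor α, had 120 and 103 counts in WT IEC colon and 7 and 5 in WT IEC ileum, 16.0-fold lower in the ileum (log2 fold change −4.00, SE 0.36, adjusted p = 7.2e-05, edgeR). In WT IEC, Esr1 too entered the test only through its colon counts, so the filter fixed its direction. In DDX5 ΔIEC its counts were 77 and 65 against 9 and 17 (−1.42, SE 0.45, adjusted p = 0.0692). Esrrg, an estrogen-related receptor of oxidative tissues, was lower in the ileum of both genotypes, with a log2 fold change of −0.65 (SE 0.18, adjusted p = 0.0198) in WT IEC and −1.57 (SE 0.23, adjusted p = 0.00657) in DDX5 ΔIEC. All 4 ileum libraries lay below all 4 colon libraries for each of these 3 genes. The 7 stromal markers summed to 13.3 and 17.2 CPM in WT IEC colon and 6.59 and 3.95 in WT IEC ileum, and their part in these differences was not tested.

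Nr4a1 belonged to the same side. It encodes Nur77, a ligand-independent receptor that cells induce within minutes of stimulation. Its RNA was 45.4 and 32.0 CPM in WT IEC colon and 6.82 and 3.46 in WT IEC ileum, 7.26-fold lower in the ileum (log2 fold change −2.86, SE 0.28, adjusted p = 0.00012), and 29.1 and 17.7 against 6.74 and 5.77 in DDX5 ΔIEC (−1.87, SE 0.29, adjusted p = 0.00764). The relative Nr4a2 was 8.92 and 8.31 CPM in WT IEC colon and 6.45 and 7.83 in WT IEC ileum, which did not pass (−0.28, SE 0.17, adjusted p = 0.228). Among 9 immediate early genes, which mark stimulation and handling alike, 6 were lower and none higher in WT IEC ileum. The shares of all genes tested were 21.4% lower and 22.2% higher. Fosb had a log2 fold change of −1.81 (SE 0.13) and Dusp1 one of −1.38 (SE 0.11). Their part in the Nr4a1 difference was not tested.

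**Figure D3:**
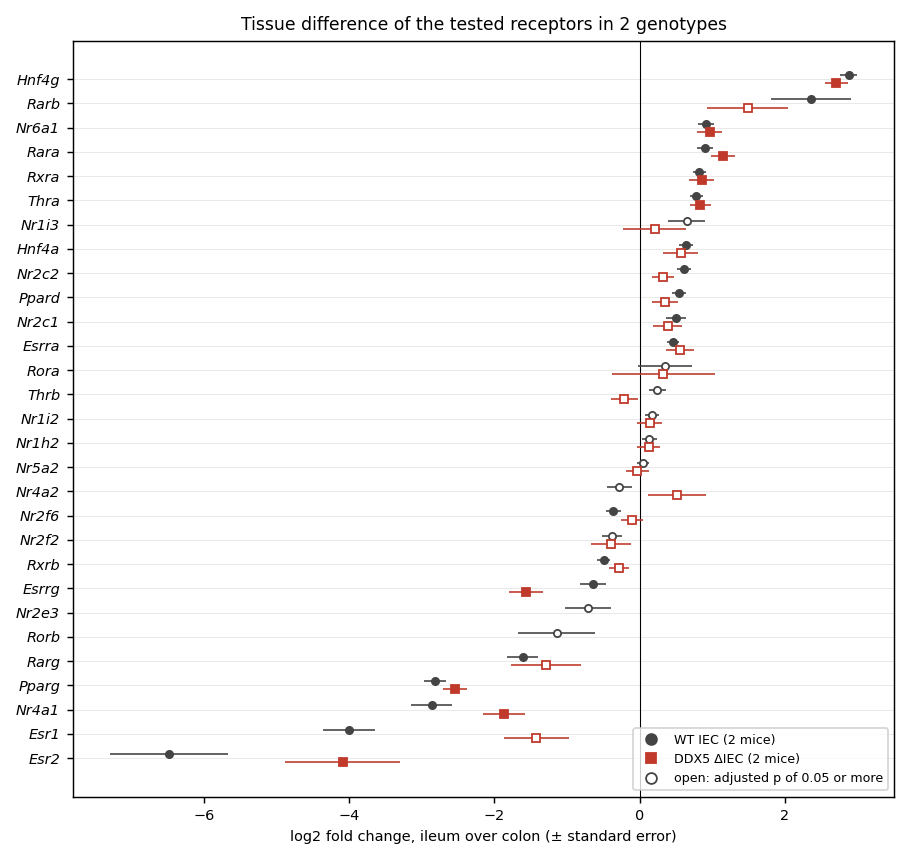
Log2 fold change of ileum over colon for the 29 receptors tested in WT IEC, with standard errors, in WT IEC (grey circles) and DDX5 ΔIEC (red squares), 2 mice each. Filled symbols have an adjusted p-value under 0.05. Hnf4g lies at 2.88 and 2.71 and Pparg at −2.82 and −2.54 in the 2 genotypes, and Esr2 and, in WT IEC, Esr1 lie farthest to the left.

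Few receptors differed between the genotypes in the colon. The study's rule takes a change when its log2 size is 0.5 or more and its p-value, not adjusted, is under 0.05. By it, 4 of the 28 members tested were lower in DDX5 ΔIEC and none was higher, against 6.64% of 12557 protein-coding genes tested (4.01% lower and 2.64% higher). No member had an adjusted p-value under 0.05, and neither did any of all 15362 genes tested by edgeR with the replicate block. An unadjusted p-value under 0.05 was seen for 6 members and for 12.0% of genes. At a log2 size of 1 or more the rule left 1 member, Nr4a2, against 3.07% of genes. DESeq2 called 117 genes at an adjusted p-value under 0.05, none of them a member. CPM of the genotypes did not overlap for 16 of the 28 members, against 44.6% of genes tested, and the median log2 fold change of the members was 0.02. With 2 mice a group, the smallest two-sided p that exact permutation allows is 0.333, so the p-values here lean on variance pooled over genes. They measure the spread that is left between these mice once the replicate number is fitted as block.

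The 4 receptors were Nr4a1, Nr4a2, Esr1 and Rarg. Nr4a1 RNA went from 45.4 and 32.0 CPM in WT IEC to 29.1 and 17.7 in DDX5 ΔIEC colon, 1.69-fold (log2 fold change −0.76, SE 0.11, unadjusted p = 0.00102, adjusted p = 0.219, edgeR). Nr4a2, or Nurr1, went from 8.92 and 8.31 CPM to 2.87 and 5.92 (log2 fold change −1.04, SE 0.32, unadjusted p = 0.0235, adjusted p = 0.342, edgeR). Both DDX5 ΔIEC libraries lay below both WT IEC libraries in each gene. Nr4a1 did not meet the rule without WT IEC replicate 1 (−0.46) or without DDX5 ΔIEC replicate 2 (−0.41), and Nr4a2 did not without either replicate 1 (−0.91 without that of WT IEC and −0.54 without that of DDX5 ΔIEC). The third member of the group, Nr4a3, had 9 and 2 counts in WT IEC against 2 and 3 in DDX5 ΔIEC.

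Immune cell markers were also lower in DDX5 ΔIEC colon. Within that group their sum was lowest in replicate 1, as Nr4a2 was, while Nr4a1 was lowest in replicate 2. The 9 leukocyte markers summed to 32.5 and 25.9 CPM in WT IEC colon and to 7.88 and 15.2 in DDX5 ΔIEC colon, with at most 2 of the 9 at 0 in any library. Of the 6 tested, each was lower in the fit and 2 met the rule, the leukocyte antigen gene Ptprc (−1.43, SE 0.30) and the T cell gene Cd8a (−2.22, SE 0.68). Of the 9 immediate early genes, none met the rule and 3 had an unadjusted p-value under 0.05, and their log2 fold changes ran from −0.37 to 0.31. In bulk samples, fewer cells of a type and less RNA per cell cannot be told apart. Tuft cell markers, 3 of 3, met the rule with lower values, and their summed level was 53.0 and 59.5 CPM in WT IEC colon and 16.4 and 37.9 in DDX5 ΔIEC colon. Of 4 goblet cell markers, Fcgbp (−0.61, SE 0.12) and Clca1 (−1.57, SE 0.18) met it, also lower. The part of these cell types and of the immediate early genes in the receptor values of the colon was not tested.

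Esr1 went from 6.29 and 4.53 CPM in WT IEC colon to 4.24 and 2.96 in DDX5 ΔIEC colon, from 120 and 103 to 77 and 65 counts (log2 fold change −0.60, SE 0.21, unadjusted p = 0.0335, adjusted p = 0.381, edgeR). The 7 stromal markers summed to 12.5 and 7.19 CPM in DDX5 ΔIEC colon, against 13.3 and 17.2 in WT IEC colon, and 1 of 5 tested, the matrix gene Dcn, met the rule (−1.49, SE 0.57), its part in the Esr1 value not being tested. The lower WT IEC library and the higher DDX5 ΔIEC library stood close together. Rarg went from 7.76 and 8.57 CPM to 3.25 and 6.83 (−0.77, SE 0.28, unadjusted p = 0.0403, adjusted p = 0.402, edgeR). Most of that difference lay in DDX5 ΔIEC replicate 1, without which it was −0.26. With 1 library left out, Esr1 met the rule in none of the 4 fits (−0.34 to −0.87). Neither Esr1 nor Rarg met the rule without the replicate block, with DESeq2 or with all 8 libraries in one fit.

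Just under the threshold of 0.5 stood Nr6a1, at 17.3 and 16.7 CPM in WT IEC against 12.0 and 12.6 in DDX5 ΔIEC colon (log2 fold change −0.48, SE 0.13, unadjusted p = 0.0146, edgeR). The pregnane X receptor gene Nr1i2 was 72.1 and 65.0 CPM in WT IEC against 84.8 and 79.6 in DDX5 ΔIEC colon (0.25, SE 0.09, unadjusted p = 0.0357, edgeR), also short of the rule. Nr2e3, a photoreceptor factor, had 30 and 36 counts in WT IEC against 1 and 23 in DDX5 ΔIEC (−1.64, SE 0.78, unadjusted p = 0.0909, edgeR). The abundant receptors stayed within narrow limits. The log2 fold change was 0.14 (SE 0.10) for Hnf4a, 0.05 (SE 0.12) for Hnf4g, −0.14 (SE 0.09) for Esrra, 0.15 (SE 0.08) for Rxra and −0.25 (SE 0.15) for Pparg.

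In the ileum, 3 of the 27 members tested met the rule in DDX5 ΔIEC, 1 lower and 2 higher, against 6.61% of 12064 protein-coding genes tested (2.83% lower and 3.78% higher). None of the 27 had an adjusted p-value under 0.05, against 0.697% of 14068 genes tested, and 5 had an unadjusted p-value under 0.05, against 12.3% of genes. DESeq2 called 39 genes at an adjusted p-value under 0.05 and no member. At a log2 size of 1 or more the rule left 2 members, against 1.93%. Groups did not overlap for 9 of the 27, against 39.5% of genes. Esrrg, the lower one, was 8.66 and 7.14 CPM in WT IEC ileum and 3.74 and 5.02 in DDX5 ΔIEC ileum, 188 and 103 against 40 and 47 counts (log2 fold change −0.86, SE 0.25, unadjusted p = 0.00601, adjusted p = 0.188, edgeR). Both DDX5 ΔIEC libraries were below both WT IEC libraries, and the rule was met with each ileum library left out in turn, but not with DESeq2. Its relative Esrra did not move with it (−0.08, SE 0.15), and none of 7 tested targets of the estrogen-related receptors, genes of the mitochondrion, met the rule.

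Markers of cell types differed in the ileum too. All 3 tuft cell markers met the rule with lower values, and their summed level was 238 and 370 CPM in WT IEC ileum and 153 and 203 in DDX5 ΔIEC ileum. Of 3 enteroendocrine markers, Chga (0.92, SE 0.16) and Chgb (0.69, SE 0.15) met it with higher values, as did 1 of 4 goblet markers, Tff3 (0.51, SE 0.21). Of 7 leukocyte markers tested, 1 met the rule with a higher value, and their log2 fold changes ran from −0.41 to 2.18. The 9 leukocyte markers summed to 60.2 and 75.4 CPM in WT IEC ileum and 59.0 and 54.3 in DDX5 ΔIEC ileum. Of 2 colon markers tested, 1 met the rule with a lower value (−2.16), and of 2 stromal markers tested none did. The part of all these markers in the receptor and target values of the ileum was not tested.

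Esr1 and Rarb, both scarce in the ileum, met the rule with higher values in DDX5 ΔIEC. Esr1 had 7 and 5 counts in WT IEC ileum and 9 and 17 in DDX5 ΔIEC ileum, from 0.323 and 0.346 to 0.842 and 1.82 CPM (log2 fold change 1.88, SE 0.56, unadjusted p = 0.00647, adjusted p = 0.195, edgeR). It passed the filter on low counts only through the DDX5 ΔIEC libraries. Rarb had 24 and 17 counts against 26 and 20, from 1.11 and 1.18 to 2.43 and 2.14 CPM (1.01, SE 0.39, unadjusted p = 0.0264, adjusted p = 0.326, edgeR). The 2 genotypes did not overlap in either gene. For Esr1, the library with the higher value, DDX5 ΔIEC replicate 2, also had the highest olfactory receptor level, 167 CPM, and without it the rule was not met (1.34, unadjusted p = 0.0678, edgeR). Rarb did not meet it with any ileum library left out, and neither gene met it with DESeq2. In the other DDX5 ΔIEC library, Esr1 was at 0.842 CPM with olfactory receptor genes at 19.7 CPM, under both WT IEC libraries. Rarb was higher in that library, at 2.43 CPM, than in replicate 2. Top2b, which shares exon bases with Rarb on the opposite strand, was 175 and 206 CPM in WT IEC ileum and 118 and 156 in DDX5 ΔIEC ileum.

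**Figure D4:**
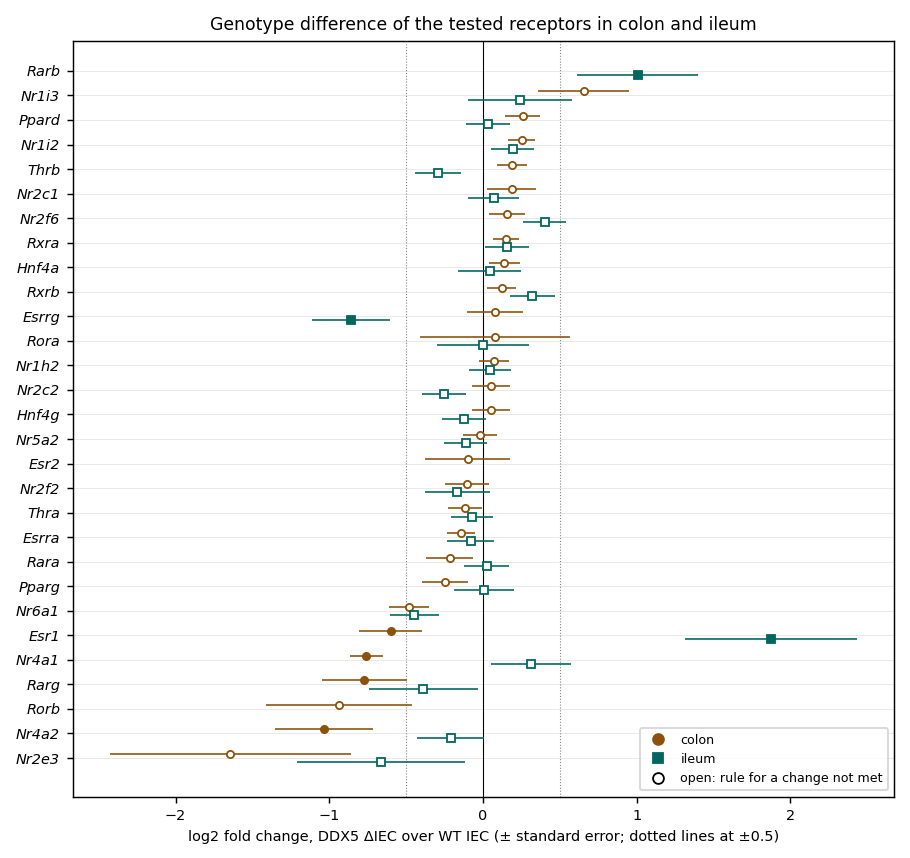
Log2 fold change of DDX5 ΔIEC over WT IEC with standard errors for the receptors tested in colon (brown circles) or ileum (green squares), 2 mice per group. Filled symbols met the study's rule. Most receptors lie between the dotted lines at ±0.5, 4 are filled on the left in colon, and in ileum Esrrg is filled on the left and Esr1 and Rarb on the right.

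Nr6a1 had a like value in both tissues, −0.48 in the colon and −0.45 (SE 0.16, unadjusted p = 0.0192, edgeR) in the ileum, where it was 33.5 and 30.3 CPM in WT IEC against 21.1 and 26.0 in DDX5 ΔIEC. All 4 DDX5 ΔIEC libraries lay below the WT IEC libraries of their tissue. Nr2f6, an orphan receptor of the COUP-TF group, was 63.9 and 73.0 CPM in WT IEC ileum and 92.4 and 87.6 in DDX5 ΔIEC ileum (0.40, SE 0.14, unadjusted p = 0.0157, edgeR). Nr4a1 and Nr4a2 did not meet the rule in the ileum, with log2 fold changes of 0.31 (SE 0.26) and −0.21 (SE 0.22). The HNF4, RXR and PPAR genes had log2 fold changes from −0.12 for Hnf4g to 0.32 for Rxrb.

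Whether a genotype difference itself differed between the tissues was tested over all 8 libraries. No member passed at an adjusted p-value under 0.05, against 0.0124% of 16178 genes tested, and 2 of 29 had an unadjusted p-value under 0.05, against 4.67% of genes. These were Esr1, lower in DDX5 ΔIEC colon and higher in DDX5 ΔIEC ileum (difference of log2 fold changes 2.54, SE 0.63, unadjusted p = 0.00339, adjusted p = 0.935, edgeR), and Esrrg (−0.95, SE 0.30, unadjusted p = 0.0118, adjusted p = 1, edgeR). Esr1 passed when no filter on low counts was set (adjusted p = 0.00543, edgeR) and in no other alternative. It was the 1 member called in both tissues. Of all genes, 184 were called in both and 168 of them in the same direction. Across the 26 members tested in both tissues, 17 had the same sign, against 63.4% of genes.

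**Figure D5:**
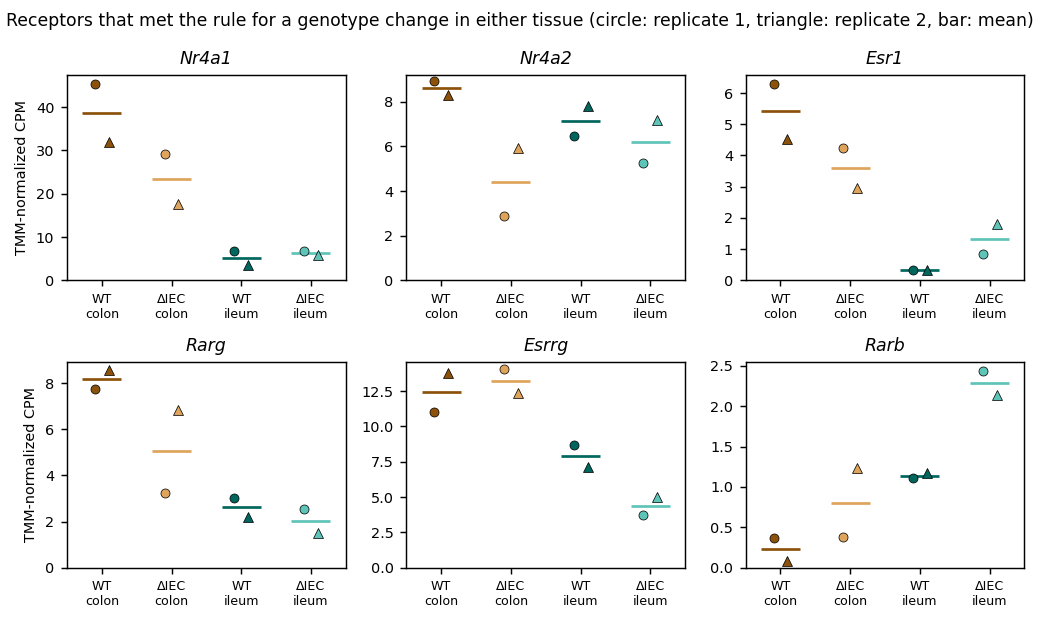
CPM of the 6 receptors that met the rule for a genotype difference in colon or ileum, in every library. Circles are replicate 1, triangles replicate 2, bars the mean of 2 mice, and all axes start at 0. Nr4a1, Nr4a2, Esr1 and Rarg are lower in both DDX5 ΔIEC colon libraries than in both WT IEC colon libraries, and in ileum Esrrg is lower and Esr1 and Rarb are higher.

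Receptor cofactors were compared by the same rule. Of 17 coactivators, none met it in the colon, with log2 fold changes from −0.69 to 0.40. In the ileum 1 did, where they ran from −0.49 to 0.69. Of protein-coding genes tested, 6.64% met it in the colon and 6.61% in the ileum, so 1 of 17 is near the general share. An unadjusted p-value under 0.05 was seen for 2 of the 17 in colon and for 4 in ileum, against 12.0% and 12.3% of genes. The coactivator that met the rule was Ddx17, the closest relative of Ddx5, which went from 247 and 281 CPM in WT IEC to 431 and 417 in DDX5 ΔIEC ileum (log2 fold change 0.69, SE 0.16, unadjusted p = 0.00149, adjusted p = 0.103, edgeR). In the colon it was 268 and 288 CPM in WT IEC against 365 and 376 in DDX5 ΔIEC (0.40, SE 0.08, unadjusted p = 0.00529, adjusted p = 0.271, edgeR), short of the rule. Of 10 corepressors, none met it in either tissue, with log2 fold changes from −0.10 to 0.37 in the colon and from −0.23 to 0.34 in the ileum.

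Among the target lists, that of PXR and CAR had the most genes meeting the rule in the ileum. Of 10 tested, 5 were higher in DDX5 ΔIEC and none was lower, against 3.78% and 2.83% of protein-coding genes, with a median log2 fold change of 0.53. Cyp3a11, the main drug-metabolizing P450 that PXR induces, went from 1.38 and 1.66 CPM in WT IEC ileum to 9.36 and 6.41 in DDX5 ΔIEC ileum, or from 30 and 24 to 100 and 60 counts (log2 fold change 2.39, SE 0.31, adjusted p = 0.00809, edgeR). Cyp3a25 of the same gene cluster went from 2.90 and 1.66 to 11.1 and 5.56 CPM (1.86, SE 0.26, adjusted p = 0.0151, edgeR). Both DDX5 ΔIEC libraries were above both WT IEC libraries for each gene. Only uniquely mapped reads were counted, so reads that fit several near-identical Cyp3a genes equally are missing, and the individual values are uncertain. Without the replicate block the adjusted p-values were 0.305 and 0.456 (range over all alternatives 1.78e-15 to 0.593 and 2.77e-10 to 0.898, edgeR and DESeq2), and with each library left out Cyp3a11 met the study's rule and Cyp3a25 did not.

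The other 3 were Abcc2 (0.72, SE 0.18), Abcb1a, the P-glycoprotein pump (0.64, SE 0.16), and Cyp2c55 (0.61, SE 0.23), and their adjusted p-values were 0.126, 0.124 and 0.306 (edgeR). Abcb1a was 197 and 180 CPM in WT IEC ileum against 356 and 240, while Cyp2c55 values overlapped between genotypes, at 5.48 and 7.41 CPM against 6.46 and 14.2. The receptors that act on these genes did not meet the rule in the ileum. Nr1i2 was 79.8 and 74.6 CPM in WT IEC against 99.8 and 77.4 in DDX5 ΔIEC ileum (0.19, SE 0.14), and Nr1i3 was 2.86 and 3.67 against 4.87 and 2.78 (0.24, SE 0.34). In the colon 1 of 9 tested met the rule, Abcc2, from 17 and 14 to 46 and 27 counts (1.26, SE 0.34, adjusted p = 0.322, edgeR).

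Other targets moved singly. In the ileum Angptl4, a lipase inhibitor and PPAR target, was 4.29 and 12.7 CPM in WT IEC against 36.9 and 17.4 in DDX5 ΔIEC (1.77, SE 0.45, adjusted p = 0.124, edgeR), and met the rule. In the colon Plin2, which coats lipid droplets, was the 1 PPAR target to meet it (0.58, SE 0.17). Of the 7 LXR targets in the colon, Abcg1, a cholesterol exporter of macrophages and other cells, was lower (−1.16, SE 0.23), and Abcg5 (1.02, SE 0.35) and Abcg8 (0.88, SE 0.23) were higher. In the ileum Abcg8 alone of the 7 met the rule, in the other direction (−0.55, SE 0.13).

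Among retinoic acid receptor targets in the colon, Tgm2 met the rule. It was 18.7 and 22.1 CPM in WT IEC against 3.69 and 15.3 in DDX5 ΔIEC (−1.34, SE 0.43), lowest in DDX5 ΔIEC replicate 1, as Rarg was. In the ileum none of the 5 met the rule. Single genes that met it in the remaining lists were Me1, malic enzyme and thyroid hormone target (−1.24, SE 0.35, colon), the estrogen receptor targets Ccnd1, cyclin D1 (−0.57, SE 0.11, colon), and Igfbp4 (−0.83, SE 0.21, ileum), and the HNF4 targets Creb3l3 (0.81, SE 0.29, colon) and Apoc3 (0.64, SE 0.24, ileum). None of these had an adjusted p-value under 0.05. No target of the estrogen-related receptors or of NR5A2 met the rule in either tissue.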

How the data were processed

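RNAseq counts of IECs from 2 WT IEC and 2 DDX5 ΔIEC mice were read from one table per tissue. As per the methods, the authors aligned reads to mm10 with STAR 2.6.1a, counted uniquely mapped reads over exons of the GENCODE vM19 genes with featureCounts, and deposited the raw counts, used here for all tests, with gene lengths that equal the union of exons. The authors' size-factor-normalized values and their comparison columns (fold changes, standard errors, p-values) were not used, and 0 other per-sample columns were left out.

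Genes passing filterByExpr (minimum count 10) were TMM-normalized and tested with edgeR 4.0.16 quasi-likelihood fits in R 4.3.3, with Benjamini-Hochberg adjustment over all genes tested. Genotypes were compared within each tissue with the replicate number as block, since the study fitted a harvest covariate and describes pairs of littermates. Ileum was compared with colon within each genotype, and the interaction over all 8 libraries, without a block. CPM use TMM over all 8 libraries, and levels between genes are CPM per kb. Alternatives were the block, DESeq2 1.42.0, RLE, no filter, a mean of 10 counts, no repeat-like genes, all 8 libraries, a log2 fold change of 1, plain CPM and each library left out. The fits were tested on simulated counts. Same-numbered libraries had deviation correlations of −0.000405 (colon, between genotypes), 0.125 (ileum, between genotypes), 0.140 (WT IEC, between tissues) and 0.142 (DDX5 ΔIEC, between tissues). The tissues are paired by mouse through the study's mouse numbers.

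The 36 receptors and the lists of cofactors, targets and markers were chosen with earlier results of these data known. Genes of those lists are named only where they passed the rule of the comparison described, at most 6 per list by unadjusted p. Positions and overlaps come from GENCODE vM21, and 33 members have the same identifier version there. Total counts per library of 11571061 to 22984283 set the precision of scarce receptors. Values of some list genes are not reported here.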

Additional observations from a re-analysis of the deposited data

How the results depend on the processing

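For receptors with an unadjusted p-value under 0.05 in the comparison, 303 values kept direction and side of the threshold under alternatives other than a left-out library, 12 lost and 10 gained the call. With a library left out, 140 kept it, 48 lost it and 8 gained it. None of these reversed. Over all receptors tested, 14 and 75 values changed sign, none of them of a called receptor. Such fits leave 1 library in a group, whose spread was taken to be that of the other groups.

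For the genotype in colon, where 834 genes and 4 receptors were called, DESeq2 gave 463 genes and a log2 size of 1 gave 386 genes and 1 receptor. Without a library there were 524 to 1531 genes and 1 to 5 receptors. The 1, without WT IEC replicate 1, was Rarb, which did not pass the filter with all libraries, and none of the 4 was called there. The fit without the replicate block called 2 receptors. Deviations of same-numbered colon libraries did not correlate between genotypes (−0.000405), which cannot show whether these libraries are littermate or harvest pairs. In ileum, with 797 genes and 3 receptors called, DESeq2 gave 362 genes and 0 receptors, a log2 size of 1 gave 233 genes, and left-out libraries gave 615 to 1299 genes. The block changed no count of receptors there. Ileal Esr1 was not tested with a mean of 10 counts or without the repeat-like genes, where it did not pass the filter.

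Between the tissues of WT IEC, left-out libraries gave 3153 to 3631 genes and 10 to 12 receptors, against 6811 and 19. In DDX5 ΔIEC a fit of all 8 libraries gave 5711 genes and 14 receptors, against 3771 and 9. For the interaction, with 2 genes and 0 receptors called, the mouse as replicate block gave 1 gene, DESeq2 17, no filter on low counts 210 genes and 1 receptor (Esr1), a mean of 10 counts 0, and left-out libraries 0 to 30. The cause of these moves was not tested. Without TMM factors, receptor levels summed to 1749.2, 1828.4, 2142.5 and 1949.1 CPM in WT IEC colon, DDX5 ΔIEC colon, WT IEC ileum and DDX5 ΔIEC ileum, against 1581.4, 1659.7, 2237.8 and 2262.8 with them. Plain scaling shifted the median tissue difference of all genes by −0.21 in WT IEC and −0.36 in DDX5 ΔIEC, and no called receptor changed sign. Depth limits the 6 receptors with at most 10 counts and the ileal values of Esr1, Esr2 and Rarb.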
